A study of Homo sapiens with 2 samples.

Results

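Transcripts of 35 genes of sterol and fatty acid synthesis were compared between 2 RNA sequencing libraries of A2780, a cell line from a human ovarian carcinoma. The genes were chosen by symbol as steps of both pathways and their regulators, and all 35 were found among 58735 genes in the deposited table. They comprised 20 sterol enzymes, 9 fatty acid enzymes and 6 regulators. One library was labelled shControl and carried a wild-type genotype label, and the design text describes its cells as given an empty vector. The other was labelled shJAM3, with stable knockdown of JAM3, a cell-surface protein of cell contacts. Each group had 1 library of poly(A)-selected RNA from cells in logarithmic growth, so differences below lie between these libraries, have no replicate check and carry no p-value. The sources used here name no knockdown sequence, and the design text speaks of siRNA where the titles carry the prefix sh.

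Cholesterol is built from acetyl-CoA through mevalonate, isoprenoid diphosphates, squalene and lanosterol, and a series of enzymes of the endoplasmic reticulum then trims lanosterol to cholesterol. Fatty acids are built from the same acetyl-CoA by carboxylation and repeated condensation, and are then elongated, desaturated and esterified. Both pathways are under the SREBP transcription factors, which SCAP escorts to the Golgi for cleavage when sterols are low and which INSIG proteins retain in the endoplasmic reticulum when sterols are high. Proliferating cancer cells are known for high expression of both pathways.

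The libraries held 15570262 (shControl) and 16455079 (shJAM3) fragments assigned to genes. JAM3 had 18 fragments in shControl (0.215 FPKM, that is fragments per kilobase of gene at a common library size) and 14 in shJAM3 (0.154 FPKM). The ratio was 0.716 with a 95% counting interval of 0.330 to 1.52, which includes 1. Its lower bound is above the residual level implied by the knockdown that the design text states from qRT-PCR. The names shControl and shJAM3 therefore stand for the libraries as labelled, and every direction below rests on those labels. Exons of NCAPD3 cover 8.53% of the JAM3 exon bases. The epithelial keratins KRT8 (139 and 153 FPKM) and KRT18 (145 and 165 FPKM) and the ovarian carcinoma antigen MSLN (198 and 127 FPKM) were abundant. EPCAM, CDH1, KRT19 and WT1 were below 1 FPKM in both libraries, PAX8 gave 1.12 and 0.527 FPKM, and MUC16 gave 0.475 and 1.07 FPKM (ratio 2.25, interval 1.98 to 2.57). Among 9 markers of leukocytes, endothelium and fibroblasts, PDGFRB was at 3.79 and 2.99 FPKM and the other 8 were below 0.4 FPKM in both libraries.

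Of the 35 genes, 34 averaged 1 FPKM or more across the libraries and were taken as measured, and 23 of these 34 (67.6%) were lower in shJAM3. Among 10499 measured protein-coding genes 50.6% were lower and 49.4% higher. In bulk RNA, fewer expressing cells and less RNA per cell cannot be told apart. The differences were moderate: 9 of the 34 genes were at least 1.5-fold lower on the scale log2(FPKM + 1), where the background was 9.3%, and 1 was at least 1.5-fold higher, where it was 5.12%. No member was past 2-fold in either direction, against 1.41% of measured protein-coding genes lower and 0.391% higher. The 9 lower genes were PMVK, LSS and TM7SF2 of the sterol enzymes, FASN, SCD and AGPAT2 of the fatty acid enzymes, and the regulators INSIG1, SCAP and SREBF1. The higher gene was LBR. These counts shift with the base composition of the transcripts, for which values are given after the 3 classes.

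Ratios of shJAM3 to shControl are given below with a 95% interval for counting error from the recovered fragments. Such intervals leave out the spread between cultures, and amplified copies make them too narrow. They lay below 1 for 22 of the 34 measured genes and above 1 for 9, against a background of 36.8% and 34.5% of measured protein-coding genes.

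**Figure D1:**
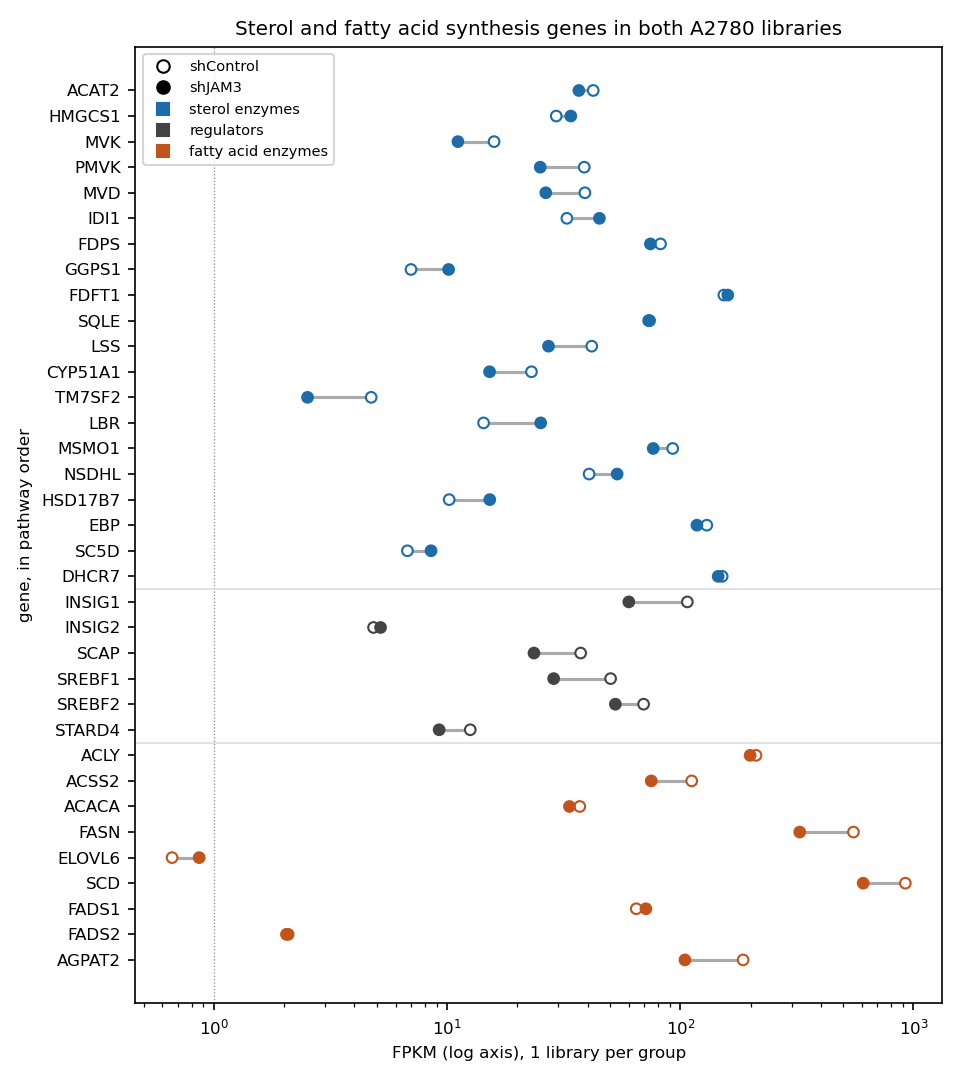
FPKM of each gene in shControl (open) and shJAM3 (filled) on a log axis, in pathway order from the sterol enzymes (blue) through the regulators (grey) to the fatty acid enzymes (orange), with 1 library per group and a dotted line at 1 FPKM. SCD and FASN lie furthest right in both libraries, and ELOVL6 is the 1 gene left of the dotted line.

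The sterol enzymes were split between both directions. Of 20, 12 were lower and 8 higher in shJAM3, with a median log2 ratio of -0.10 against -0.01 for measured protein-coding genes. Their summed level was 1029 FPKM in shControl and 982 in shJAM3 (ratio 0.954). FDFT1, DHCR7 and EBP were the most abundant in both libraries.

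In the mevalonate segment 5 of 8 genes were lower. ACAT2, the cytosolic thiolase that joins 2 acetyl-CoA, stood at 42.3 FPKM in shControl against 36.7 in shJAM3 (ratio 0.868, interval 0.822 to 0.915). HMGCS1, which makes HMG-CoA, gave 29.4 and 33.9 FPKM (ratio 1.15, interval 1.09 to 1.22). These opening steps thus stood on opposite sides of 1 before centring on GC content, which is described below. After it the log2 ratios were -0.21 for ACAT2 and -0.0025 for HMGCS1.

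The kinases and the decarboxylase that follow were all lower. MVK, mevalonate kinase, stood at 15.9 FPKM in shControl against 11.1 in shJAM3 (ratio 0.700, interval 0.649 to 0.755). PMVK, phosphomevalonate kinase on chromosome 1 (ENSG00000163344, 154924734 to 154936991, GRCh38, minus strand), gave 38.7 and 25.1 FPKM (ratio 0.648, interval 0.579 to 0.724). MVD, the decarboxylase that yields isopentenyl diphosphate, gave 39.0 and 26.5 FPKM (ratio 0.679, interval 0.642 to 0.719). The 3 consecutive steps lay within a narrow range of ratios before centring on GC content. After it their log2 ratios were more spread, at -0.25 for MVK, -0.38 for PMVK and -0.04 for MVD.

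Of the isoprenoid steps that come next, 2 were higher and 1 was slightly lower. IDI1, which isomerizes isopentenyl diphosphate, stood at 32.6 FPKM in shControl against 45.0 in shJAM3 (ratio 1.38, interval 1.31 to 1.46). FDPS, farnesyl diphosphate synthase, gave 82.2 and 74.4 FPKM (ratio 0.905, interval 0.868 to 0.942). GGPS1, which makes geranylgeranyl diphosphate for protein prenylation and so leaves the sterol route, gave 6.99 and 10.1 FPKM (ratio 1.45, interval 1.28 to 1.65). The branch enzyme was therefore the highest of this segment by ratio and the least abundant of it. Centring on GC content brought the log2 ratios nearer to 0, at 0.28 for IDI1, -0.04 for FDPS and 0.31 for GGPS1.

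At the squalene steps, the committed enzymes were close to level and the cyclase was lower. FDFT1, squalene synthase, stood at 154 FPKM in shControl against 160 in shJAM3 (ratio 1.04, interval 1.01 to 1.07). SQLE, the epoxidase and a known rate-controlling step, gave 73.8 and 73.1 FPKM (ratio 0.990, interval 0.952 to 1.03), an interval that includes 1. LSS, which closes the ring to lanosterol, is on chromosome 21 (ENSG00000160285, 46188141 to 46228824, minus strand) and gave 41.7 and 27.2 FPKM (ratio 0.652, interval 0.624 to 0.682). After centring on GC content the log2 ratios were -0.02 for FDFT1, -0.14 for SQLE and -0.41 for LSS.

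After lanosterol, 5 of 9 genes were lower and 4 higher. CYP51A1, the lanosterol demethylase, stood at 22.98 FPKM in shControl against 15.2 in shJAM3 (ratio 0.661, interval 0.606 to 0.721). Its log2 ratio of -0.57 on the scale log2(FPKM + 1) lay just inside the 1.5-fold rule (0.58). Without the added 1 FPKM it was -0.60, past the rule. Another annotated gene on the same strand covers 79.4% of the CYP51A1 exon bases and is listed at 0 in both libraries, and how fragments in the shared part were counted is not known from the files.

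The reduction that follows the demethylase has 2 alternative enzymes, and these went opposite ways. TM7SF2, on chromosome 11 (ENSG00000149809, 65111845 to 65116384, plus strand), stood at 4.72 FPKM in shControl against 2.52 in shJAM3 (ratio 0.533, interval 0.431 to 0.658) from 247 and 143 fragments. LBR, on chromosome 1 (ENSG00000143815, 225401502 to 225428925, minus strand), which is also the lamin B receptor of the inner nuclear membrane, gave 14.3 and 25.2 FPKM (ratio 1.76, interval 1.64 to 1.89). TM7SF2 stood at 0.330 times the level of LBR in shControl and at 0.0999 times in shJAM3. Their summed level was 19.03 FPKM in shControl and 27.7 in shJAM3, so the pair together was 1.45-fold higher. The transcripts differ in GC content, at 62.0% for TM7SF2 and 37.8% for LBR, and the log2 ratios centred on GC content, as described below, were -0.37 and 0.56.

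The demethylation complex at carbon 4 was also split. MSMO1, the methyl oxidase, stood at 92.7 FPKM in shControl against 76.5 in shJAM3 (ratio 0.825, interval 0.789 to 0.862). NSDHL, the decarboxylating dehydrogenase, gave 40.6 and 53.6 FPKM (ratio 1.32, interval 1.23 to 1.42). HSD17B7, the keto reductase, gave 10.2 and 15.2 FPKM (ratio 1.49, interval 1.36 to 1.64). Among these, the oxidase was lower and both enzymes acting after it were higher. HSD17B7 has a transcribed copy, HSD17B7P2, with 61 and 42 fragments, so part of its count is uncertain.

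Of the closing steps, the first and the last were close to level. EBP, the sterol isomerase, stood at 130 FPKM in shControl against 118 in shJAM3 (ratio 0.907, interval 0.871 to 0.944). SC5D, the desaturase, gave 6.75 and 8.52 FPKM (ratio 1.26, interval 1.13 to 1.41). DHCR7, which reduces dehydrocholesterol to cholesterol, gave 151 and 145 FPKM (ratio 0.961, interval 0.935 to 0.989). The last enzyme thus differed by less than EBP and SC5D before centring on GC content. After it the log2 ratios were -0.10 for EBP, 0.09 for SC5D and 0.13 for DHCR7, so that order did not hold.

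SCD and FASN, the most abundant fatty acid enzymes, were both lower. Of 8 measured, 6 were lower and 2 higher, with a median log2 ratio of -0.36. With ELOVL6 included the median was -0.14, and with genes of at least 5 FPKM -0.57, so it depends on which of these few genes enter. The summed level of all 9 was 2089 FPKM in shControl and 1420 in shJAM3 (ratio 0.680). SCD and FASN made up 81.0% of that difference, and 70.6% of the summed level in shControl and 65.7% in shJAM3.

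The enzymes that supply acetyl-CoA differed from each other. ACLY, which splits citrate, stood at 211 FPKM in shControl against 199 in shJAM3 (ratio 0.944, interval 0.924 to 0.964). ACSS2, which activates acetate, gave 112 and 75.0 FPKM (ratio 0.671, interval 0.650 to 0.692). The ACLY transcript was 1.89 times the ACSS2 level in shControl and 2.66 times in shJAM3.

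Before centring on GC content, the synthase differed more than the carboxylase that precedes it. ACACA, acetyl-CoA carboxylase, stood at 37.0 FPKM in shControl against 33.4 in shJAM3 (ratio 0.903, interval 0.874 to 0.933). FASN, fatty acid synthase on chromosome 17 (ENSG00000169710, 82078333 to 82098332, minus strand), gave 553 and 325 FPKM (ratio 0.588, interval 0.582 to 0.595) from 79519 and 50767 fragments. FASN was 14.9 times the ACACA level in shControl and 9.72 times in shJAM3. The transcripts differ in GC content, at 65.3% for FASN and 48.7% for ACACA. Their log2 ratios after centring were close, at -0.26 and -0.21.

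SCD, the stearoyl-CoA desaturase, was the most abundant member. It lies on chromosome 10 (ENSG00000099194, 100347124 to 100364834, plus strand) and stood at 923 FPKM in shControl against 608 in shJAM3 (ratio 0.659, interval 0.652 to 0.667). By mean FPKM, 19 protein-coding genes ranked above SCD and 41 above FASN. SCD and FASN together took 0.999% (Wilson 95% interval 0.994 to 1.00) of all fragments in shControl and 0.639% (0.635 to 0.643) in shJAM3. All 35 genes together took 1.88% (1.88 to 1.89) and 1.43% (1.43 to 1.44).

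The polyunsaturated desaturases were slightly higher or level. FADS1, the delta-5 desaturase, stood at 64.7 FPKM in shControl against 71.2 in shJAM3 (ratio 1.10, interval 1.07 to 1.13). FADS2, the delta-6 desaturase and a neighbour of FADS1, gave 2.04 and 2.08 FPKM (ratio 1.02, interval 0.877 to 1.18). FADS1 was 31.7 and 34.3 times the FADS2 level, and the genes share 490 exon bases on opposite strands. ELOVL6, which elongates palmitate, had 74 and 105 fragments (0.660 and 0.863 FPKM) and a ratio of 1.31 (0.961 to 1.78). For FADS2 and ELOVL6 a difference was not detectable at this depth.

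AGPAT2, which adds the second acyl chain in phosphatidic acid synthesis, was the lowest fatty acid enzyme by ratio before centring on GC content. It stood at 186 FPKM in shControl against 105 in shJAM3 (ratio 0.563, interval 0.538 to 0.589). It lies on chromosome 9 (ENSG00000169692, 136673143 to 136687423, minus strand), and its longest transcript has 65.9% GC, the highest of all members. After centring its log2 ratio was -0.32, and SCD (-0.68) and ACSS2 (-0.53) were lower.

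Of 6 regulators 5 were lower, and the median log2 ratio was -0.52. INSIG1, a retention protein of the SREBPs and itself an SREBP target, is on chromosome 7 (ENSG00000186480, 155297776 to 155310235, plus strand). It stood at 107 FPKM in shControl against 60.1 in shJAM3 (ratio 0.561, interval 0.538 to 0.585). Of measured protein-coding genes 3.10% had a lower log2 ratio. INSIG2, its paralogue, gave 4.83 and 5.18 FPKM (ratio 1.07, interval 0.914 to 1.26), and a difference was not detectable. INSIG1 was 22.2 times the INSIG2 level in shControl and 11.6 times in shJAM3.

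SCAP (ENSG00000114650), the sterol sensor and escort of the SREBPs, on chromosome 3 (47413694 to 47477126, minus strand), stood at 37.4 FPKM in shControl against 23.6 in shJAM3 (ratio 0.630, interval 0.599 to 0.663). The ratio of INSIG1 to SCAP transcripts was 2.87 and 2.55. SCAP was therefore lower together with INSIG1, by a slightly smaller factor before centring on GC content. After it the log2 ratios were further apart, at -0.31 for SCAP and -0.95 for INSIG1.

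Both transcription factor genes were lower. SREBF1, which encodes the SREBP1 forms that favour fatty acid genes, stood at 50.2 FPKM in shControl against 28.6 in shJAM3 (ratio 0.570, interval 0.547 to 0.593). It lies on chromosome 17 (ENSG00000072310, 17810399 to 17837002, minus strand). SREBF2, which encodes SREBP2 and favours sterol genes, gave 69.6 and 52.6 FPKM (ratio 0.757, interval 0.732 to 0.782). SREBF1 stood at 0.722 times the SREBF2 level in shControl and at 0.544 times in shJAM3. STARD4, a carrier that moves cholesterol between membranes, gave 12.6 and 9.23 FPKM (ratio 0.735, interval 0.672 to 0.804). These are transcript levels, and processing of the SREBP proteins was not measured here.

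**Figure D2:**
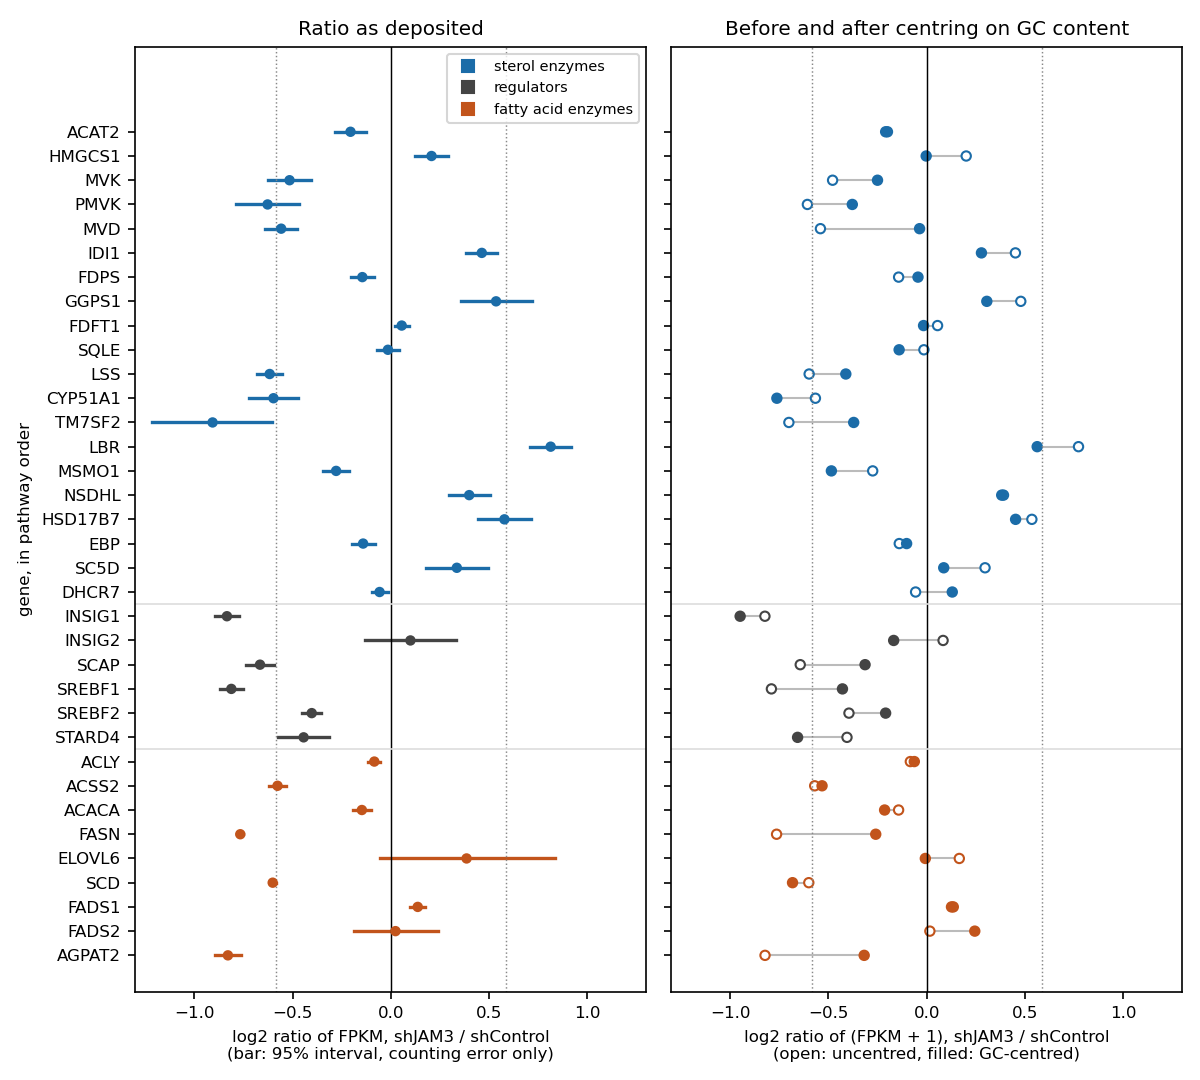
Left, log2 ratio of FPKM of each gene with its 95% interval for counting error. Right, log2 ratio of (FPKM + 1) before (open) and after (filled) centring on GC content. Colours mark the classes and dotted lines 1.5-fold. TM7SF2 and LBR lie on opposite sides of 0, and FASN, AGPAT2 and MVD move towards 0 on the right while INSIG1, CYP51A1, SCD and STARD4 move away from it.

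GC-rich transcripts tended to be lower in shJAM3 and GC-poor ones higher, among the members and among all genes. The correlation of log2 ratio with GC content was r = -0.59 across the 34 measured members and r = -0.50 across 10496 measured protein-coding genes, all from the same library pair. Of 15 members below the protein-coding median of 49.7% GC, 7 were lower, and of 19 at or above it, 16 were lower. The background was 31.2% and 70.0%. Whether the GC trend arises in library preparation or in the cells was not tested.

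Each log2 ratio was therefore also centred on the median of measured protein-coding genes in the same of 20 GC bins. After centring, 25 of 34 members (73.5%) were below 0, where the background was 49.9%, and 4 (11.8%) were at least 1.5-fold lower, where it was 5.26%. None was 1.5-fold higher, against 3.48%. The 4 genes were INSIG1 (-0.95), CYP51A1 (-0.76), SCD (-0.68) and STARD4 (-0.66). All 4 have transcripts below the protein-coding median of GC, and CYP51A1 and STARD4 were not among the 9 genes named before centring. Of those 9, INSIG1 and SCD stayed past the rule.

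Of the 19 members at or above the median GC content, ACAT2, DHCR7 and FADS2 ended further from 0 and the others nearer to it. MVD went from -0.54 to -0.04, FASN from -0.76 to -0.26, AGPAT2 from -0.82 to -0.32, SREBF1 from -0.79 to -0.43 and SCAP from -0.64 to -0.31. ACAT2 went from -0.20 to -0.21, DHCR7 from -0.06 to 0.13 and FADS2 from 0.02 to 0.24. HMGCS1 went from 0.20 to 0.00 and INSIG2 from 0.08 to -0.17. LBR stayed the highest member at 0.56, followed by HSD17B7 at 0.45 and NSDHL at 0.38. The medians after centring were -0.04 for the sterol enzymes, -0.24 for the fatty acid enzymes and -0.37 for the regulators, of which all 6 were below 0.

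**Figure D3:**
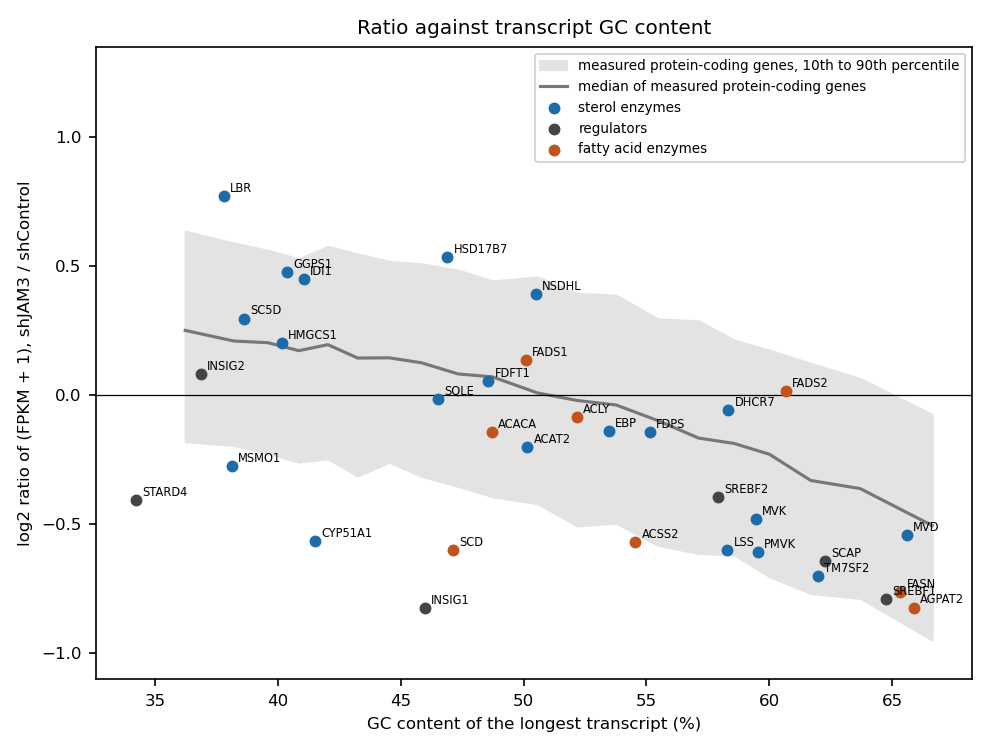
Log2 ratio of (FPKM + 1) against the GC content of the longest transcript for the 34 measured members, over the median (line) and the 10th to 90th percentile (band) of measured protein-coding genes in 20 GC bins. INSIG1, SCD, CYP51A1 and STARD4 are among the members below the band, LBR and HSD17B7 lie above it, and FASN and AGPAT2 lie inside it at its GC-rich end.

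Promoter sequence was compared because many members are known SREBP targets, and SREBPs act with NF-Y, which binds CCAAT, and Sp1, which binds GC boxes. RefSeq (GRCh38.p14) windows of 250 bases before the start were found for 31 of 35 members. The search included bases inside annotated exons, which fill the whole window of some members, such as MVK and EBP. The NF-Y motif CCAAT, searched on both strands, was in at least 1 window of 21 of 31 members (67.7%), against 41.8% of measured protein-coding genes and 37.0% of all genes with a window. It was in 14 of 17 sterol enzymes, 4 of 8 fatty acid enzymes and 3 of 6 regulators. Of measured members with a window, 15 of 20 lower genes and 6 of 10 higher genes held it. Members had 1.42 windows each and measured protein-coding genes 1.45. The Sp1 motif GGGCGG was in 29 of 31 members, against 77.3% of measured protein-coding genes and 46.2% of all. The SREBP motif TCACNCCAC was in 1 of 31 members, SREBF2, against 1.29% and 1.09%. The E-box CACGTG was in 3 of 31, SC5D, INSIG1 and SCAP, against 11.7% and 7.73%. No motif contains another, although matches can share bases, and a match is a description of letters only.

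The stretches below show members that were lower with CCAAT matches (INSIG1, SCD, MSMO1), a higher member with 1 match (HSD17B7), and a higher and a lower member without any (LBR, SREBF1). Each is given 5' to 3' on the gene's strand, leaves out bases inside annotated exons, and has CCAAT or its reverse complement in capitals. Positions are chr7:155297628-155297775 (plus) for INSIG1, chr10:100346983-100347123 (plus) for SCD, chr4:165327419-165327622 (plus) for MSMO1, chr1:162790452-162790701 (plus) for HSD17B7, chr1:225428926-225429071 (minus) for LBR and chr17:17837003-17837236 (minus) for SREBF1.
INSIG1: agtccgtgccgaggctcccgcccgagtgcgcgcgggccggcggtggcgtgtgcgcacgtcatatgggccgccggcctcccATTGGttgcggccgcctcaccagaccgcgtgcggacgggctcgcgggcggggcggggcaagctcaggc
SCD: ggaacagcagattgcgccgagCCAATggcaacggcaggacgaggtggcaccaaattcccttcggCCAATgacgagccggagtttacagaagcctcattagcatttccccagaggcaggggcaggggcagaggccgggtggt
MSMO1: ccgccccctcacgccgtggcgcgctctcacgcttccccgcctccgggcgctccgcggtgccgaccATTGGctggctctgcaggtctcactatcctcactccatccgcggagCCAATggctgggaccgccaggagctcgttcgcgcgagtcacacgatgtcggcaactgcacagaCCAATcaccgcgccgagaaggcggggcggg
HSD17B7: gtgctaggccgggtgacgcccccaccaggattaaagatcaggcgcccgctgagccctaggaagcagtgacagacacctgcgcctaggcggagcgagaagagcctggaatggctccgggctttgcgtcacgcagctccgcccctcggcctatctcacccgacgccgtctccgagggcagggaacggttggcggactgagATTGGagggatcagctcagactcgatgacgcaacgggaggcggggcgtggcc
LBR: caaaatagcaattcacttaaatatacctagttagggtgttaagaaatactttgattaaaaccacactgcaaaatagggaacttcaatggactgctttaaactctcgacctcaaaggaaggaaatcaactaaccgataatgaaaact
SREBF1: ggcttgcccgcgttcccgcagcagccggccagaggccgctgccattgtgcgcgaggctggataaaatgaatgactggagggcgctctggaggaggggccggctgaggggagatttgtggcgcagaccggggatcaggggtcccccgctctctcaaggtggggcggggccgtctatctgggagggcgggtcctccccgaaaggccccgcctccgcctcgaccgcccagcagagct

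SREBF2 holds the SREBP motif at position -133 from its start and a CCAAT match on the other strand at -106. INSIG1 holds the E-box at -55. Both sites lie inside annotated exons, unlike the stretches above, and are shown with 10 bases on each side and the motif in capitals.
SREBF2 site: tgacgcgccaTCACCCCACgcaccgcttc
INSIG1 site: cgggcaggctCACGTGatgcgggccc

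Genes of the wider pathway were compared with the background of 50.6% lower and 49.4% higher. Of 15 measured genes of the isoprenoid branches, which attach prenyl groups or make ubiquinone and dolichol, 6 were lower and 9 higher, with a median log2 ratio of 0.03, or -0.017 at a mean of at least 5 FPKM. RCE1, a protease of prenylated proteins, had a ratio of 0.647 (0.581 to 0.721). FNTA, a prenyltransferase subunit, had a ratio of 1.36 (1.23 to 1.51). RABGGTB and PDSS2 had ratios of 1.27 (1.14 to 1.41) and 1.13 (0.969 to 1.32). These 4 all averaged 5 FPKM or more. Below that level, and picked after their values were seen, the highest were PDSS1 of ubiquinone synthesis, CHM (ratio 1.64) and PGGT1B (ratio 1.48). PDSS1 gave 2.90 and 5.12 FPKM (ratio 1.77, interval 1.36 to 2.32). On the scale log2(FPKM + 1) PDSS1 (0.65) was the 1 gene of the list at least 1.5-fold higher, and CHM was at 0.52. Of 32 measured genes of fatty acid supply, elongation and esterification, 12 were lower and 20 higher, none past 1.5-fold, with a median of 0.10. Of those averaging 5 FPKM or more, the genes furthest from 0 were GPAT4 (ratio 0.700) and DGAT1 (0.724), both acyltransferases, HACD3 (1.33), a dehydratase of elongation, and AGPAT1 (1.33). AGPAT1, a paralogue of AGPAT2, thus lay on the opposite side of 1 from it. Its levels were 6.35 and 8.47 FPKM.

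Of 33 measured genes of sterol regulation, transport and storage, 18 were lower and 15 higher, with a median of -0.03, or 0.0052 with scaling by the library total. Both shares lie near the background. ABCG1, a sterol exporter, stood at 19.9 FPKM in shControl against 10.3 in shJAM3 (ratio 0.517, interval 0.479 to 0.558). GRAMD1A, a sterol carrier at membrane contacts, gave 36.9 and 22.996 FPKM (ratio 0.623, interval 0.591 to 0.657). ERLIN2, a scaffold protein of degradation at the endoplasmic reticulum, gave 4.72 and 8.55 FPKM (ratio 1.81, interval 1.65 to 1.99). Its partner ERLIN1 gave 12.7 and 18.5 FPKM (ratio 1.46, interval 1.355 to 1.57). ABCG1 stayed past 1.5-fold after GC centring, at -0.85. GRAMD1A and ERLIN2 did not, at -0.30 and 0.54.

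**Figure D4:**
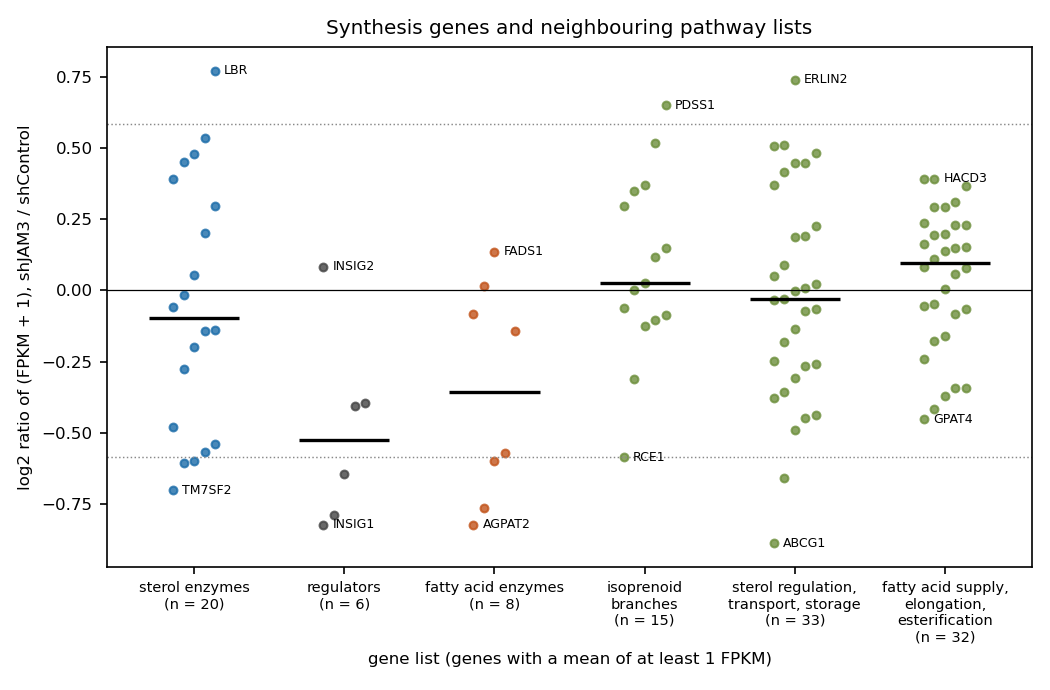
Log2 ratio of (FPKM + 1) of each measured gene in the 3 member classes and in 3 wider pathway lists, with a bar at each median and dotted lines at 1.5-fold. The fatty acid enzymes and the regulators have medians of -0.36 and -0.52, and the wider lists have medians between -0.03 and 0.10.

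Shared sequence limits some members. Opposite-strand genes covered part of the exon bases of ACAT2 (33.9% under SOD2-OT1, with 0 and 2 fragments, and 9.23% under TCP1, with 2673 and 3791 fragments), HMGCS1 (15.0%), IDI1 (14.8%), FDPS (18.6%, under RUSC1-AS1) and SREBF1 (6.92%, under RAI1), and TBCE covered 37.3% of GGPS1 on the same strand. The library protocol describes no strand marking, so fragments from such stretches cannot be assigned. SCDP1, a pseudogene of SCD, had 17 and 6 fragments, and the 3 CYP51A1 pseudogenes had 17 and 42 together. These are small beside the 76012 and 54409 fragments of SCD and the 1265 and 908 of CYP51A1.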

How the data were processed

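RNA was measured in 2 libraries of A2780 cells, 1 per group, by sequencing of poly(A)-selected RNA per the labels' protocols. The authors deposited FPKM per gene with gene lengths. The submitters' processing notes name STAR, STAR-Fusion, HISAT2 2.0.5, GATK 4.1.1.0, fastp, edgeR 3.22.5, DESeq2 1.20.0 and featureCounts 1.5.0-p3, without roles. No genome build was named in the sources used here, but all 58735 deposited identifiers, coordinates and lengths matched GENCODE 29 (GRCh38).

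FPKM times length was a whole multiple of 1 step in 100% of values above 0 (tolerance 0.001), which gave back the fragments. The scale of the FPKM implies library sizes of 0.987 and 1.01 times the fragment totals. Of rows sharing a symbol the one with the highest mean was kept (57169 left). Ratios carry exact conditional binomial 95% intervals (scipy 1.17.1), and size rules used log2(FPKM + 1). GC content came from each gene's longest coding transcript. Since each group has 1 library, the conditions could not be tested. Scripts were tested on simulated data.

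The members and lists were chosen with earlier results of these data known. Every member is named, with JAM3, fixed markers, up to 4 genes of each wider list by absolute log2 ratio at a mean of at least 5 FPKM, and overlapping genes or pseudogenes. Alternatives were another pseudocount, other scalings and filters, and centring on GC content, length or expression. One gene of a wider list and other steps of the pathways are not reported here.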

Additional observations from a re-analysis of the deposited data

How the results depend on the processing

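No paired analysis was possible because each group had 1 library, and for the same reason no replicate could be left out. Medians were said to move past a shift of 0.1 on the log2 scale and counts past 1.5 times. The count of members lower in shJAM3 stayed between 22 and 25 under all 8 alternatives. With centring on GC content, members at least 1.5-fold lower went from 9 to 4 and higher from 1 to 0, and the medians were -0.24 for fatty acid enzymes and -0.37 for regulators. It moved 26 of 35 members beyond their counting interval and turned the sign of HMGCS1, FDFT1, DHCR7 and INSIG2 among the measured members. The fatty acid median was -0.14 with no filter on low values (9 genes) and -0.57 at a mean of at least 5 FPKM (7 genes). Centring on expression gave 2 members at least 1.5-fold higher. With a pseudocount of 0.1 FPKM 10 members were at least 1.5-fold lower, now including CYP51A1 (-0.59). Scaling by the library total left 6 members at least 1.5-fold lower. SQLE changed sign under that scaling and under both length and expression centring, and FADS2 under expression centring. Among the wider lists, where the alternatives were chosen after seeing the data, sterol regulation, transport and storage went from a median of -0.03 to 0.0052 with library total scaling, and the isoprenoid branches from 0.03 to -0.017 at a mean of at least 5 FPKM. The cause of these shifts was not tested. Depth limits JAM3, ELOVL6, FADS2 and INSIG2, whose counting intervals include 1.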

Other observations

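Genes on the opposite strand were looked up after the members' values were known. Those whose outermost annotated start lies within 1000 bases of that of a member were kept, and 9 protein-coding neighbours were found. NSDHL and its neighbour CETN2, a centrin of centrosomes and nucleotide excision repair, were both higher. CETN2 stood at 16.6 FPKM in shControl against 27.8 in shJAM3 (ratio 1.68, interval 1.5 to 1.87), beside 1.32 for NSDHL. MVK and its neighbour MMAB, an enzyme of cobalamin metabolism, lay on opposite sides of 1. MMAB gave 12.1 and 13.5 FPKM (ratio 1.11, interval 1.03 to 1.2), beside 0.700 for MVK. TMEM258, an oligosaccharyltransferase subunit, starts 178 bases from the outermost annotated start of FADS2 (61792980 on chromosome 11). RefSeq places promoter windows of FADS2 elsewhere, such as 61816154 to 61816453, and a shared promoter was not tested. TMEM258 gave 21.7 and 33.7 FPKM (ratio 1.55, interval 1.44 to 1.68), beside 1.02 for FADS2. TADA2A, a subunit of histone acetyltransferase complexes 56 bases from the ACACA start, had a ratio of 1.52 (1.2 to 1.94), beside 0.903 for ACACA. WDR37 had a ratio of 0.763 (0.636 to 0.915), beside 1.38 for its neighbour IDI1. The other 4 were ARID4B, NADSYN1, TTC25 and GGT7. The neighbours named with values were picked from the 9 after their values were seen.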
